A study of Mus musculus with 9 samples.

Results

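Whole skin of 3 transgenic mouse lines, named L60, L84 and LA, was compared as a set with whole skin of control mice, named LC. All mice were of a mixed C57BL/DBA/FVB background and 30 days old, and total RNA was taken from 30 mg of skin. The title of the study names constitutively active Akt, defects of ectodermal organs and impaired BMP signalling. The labels give neither the promoter nor the allele of the transgene, nor how the 3 lines differ, nor the sex or number of mice in a pool. Each array was hybridised with 1 pool of RNA from mice of 1 genotype, with 2 pools for each line and 3 pools for LC, so that 6 line arrays stood against 3 control arrays. Nothing shows that the pools of a genotype came from different mice, so p-values measure the spread between pools, which may in part be technical. Described here are those genes, 827 of the 12393 measured, in which the groups did not overlap: either all 6 line arrays were below the lowest LC array, or all 6 were above the highest.

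Akt is a serine/threonine kinase that acts downstream of PI3K and of growth factor and insulin-like receptors, and it promotes cell growth, survival and protein synthesis while it holds FOXO transcription factors outside the nucleus. BMPs are secreted ligands that signal through receptor kinases and Smad proteins, and they induce their own inhibitors, among them Smad6, Smad7 and the pseudoreceptor Bambi. In the growing hair follicle BMP signalling accompanies the passage of matrix cells into hair shaft and inner root sheath, which then fill with hair keratins, keratin-associated proteins and trichohyalin. Mouse skin passes through synchronous rounds of hair growth and rest in the weeks after birth, and hair genes are abundant in whole skin only while follicles grow.

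The deposited value of a probe set was a standardised score with mean 0 and SD 1 over the 9 arrays, so that it carried the order and spacing of the arrays but neither a level nor a fold change. Differences are therefore in SDs, and a probe set whose lines and controls were perfectly separated would differ by at most 2. The presence of skin markers could not be checked on such a scale. Tied values were found in 44.3% of the 22690 probe sets. The 18S ribosomal RNA probe sets were high on LC 1, L60 1 and L84 1 (mean scores 0.339 to 2.09) and low on the other 6 arrays (-0.642 to -0.528). The 18 probe sets for spiked-in control RNA, which is not skin RNA, split the same way. Their mean scores were 0.205 to 1.92 on those 3 arrays and -0.921 to -0.0699 on the other 6. The cause of this split was not tested. Scores were widest on L84 1 and LA 2, with SDs over genes of 1.13 and 1.20 against 0.675 to 0.836 elsewhere. Xist, which is transcribed from the inactive X chromosome, scored -0.915, -0.900, -1.06 and -0.822 on the first array of each genotype and between 0.0770 and 1.48 on the other 5. Akt1 scored -0.457, -0.0573 and 0.0461 on the 3 LC arrays, -0.540 and 0.417 on L60, 1.31 and 0.827 on L84 and 0.0648 and -1.61 on LA, and its groups overlapped. The labels do not say which Akt gene the transgene carries.

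The 2 directions were of about the same size. Of the 12393 genes, 827 (6.67%) did not overlap, of which 369 (2.98%) were lower on every line array and 458 (3.7%) were higher. With the median of each array set to 0 the balance moved from 55.4% higher to 44.4% higher, with 462 genes lower and 369 higher. Of the genes described here, 366 of the 369 lower and 363 of the 458 higher ones kept the same side under that scaling. The median difference of all genes was 0.13 SD, and 0.07 SD with array medians at 0. Fitted with limma as 4 genotype means without variance moderation, the mean of the 3 lines differed from LC in 79 genes (0.637%) at an adjusted p under 0.05, 57 lower (0.46%) and 22 higher (0.178%). Of these, 67 did not overlap, 48 lower (0.387%) and 19 higher (0.153%), and in what follows rose and fell refer to genes that passed. With limma's moderated variance 0 genes passed, where 1695 had an unadjusted p under 0.05 against 1654 in the unmoderated fit. The moderated fit did not recover shifted genes in simulated data either. Those data had independent noise, no array effects and the same shift in all 3 lines, unlike the scores here. The simulation therefore cannot say what the count of 0 means for these calls. The count was 1 with replicate number as a block, 2 with the 6 line arrays as 1 group, 11 without the arrays high in 18S and 235 with array weights. Leaving out 1 array gave 13 genes without LC 2, 23 without LC 3, 34 without LA 2, 37 without L60 1 or LA 1, 40 without L60 2, 50 without LC 1, 78 without L84 2 and 110 without L84 1. LC 1 stood apart from the other controls, with a correlation over all genes of 0.153 with LC 2 and 0.103 with LC 3, against 0.604 between LC 2 and LC 3. Without LC 1 the non-overlapping genes were 2029, 999 lower (8.06%) and 1030 higher (8.31%), and with any other array left out 889 to 1232. Without LC 1 the hair shaft keratins still held 12 lower of 12, the keratin-associated proteins 24 of 26 and the epidermal keratins 6 higher of 10. Of 43 genes that are named by rule and passed, 9 passed whichever array was left out: Capn12, Chac1, Krt25, Krt33a, Krt34, Krt86, Krtap9-3, Nt5c2 and S100a3. Krt10 and Ran lost the call whichever array was left out. Drg2, Hoxc13, Krt5, Mbp and Msx2 kept it in 1 of the 9 runs. Of the 8 among the 43 that were means of more than 1 probe set, 7 had no probe set that passed alone: Elf5, Fbxw2, H2-K1, Mbp, Nt5c2, Ran and Stat6.

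The distance between the nearest line array and the nearest LC array, called the gap, described how far a gene's groups stood apart. The median gap was 0.283 SD for the lower genes (range 0.000364 to 1.53) and 0.225 SD for the higher genes (0.00058 to 1.27). A gap of at least 0.5 SD was found for 103 lower and 79 higher genes, and one of at least 1 SD for 25 lower and 6 higher genes. At the edge of the rule, Ran and Jchain were just inside with gaps of 0.000364 and 0.00058 SD. Acod1, Atf6b and Atp6v0d1 on the lower side and Akna, 1810044D09Rik and 4930591A17Rik on the higher side had a line array tied with an LC array and were left out.

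**Figure D1:**
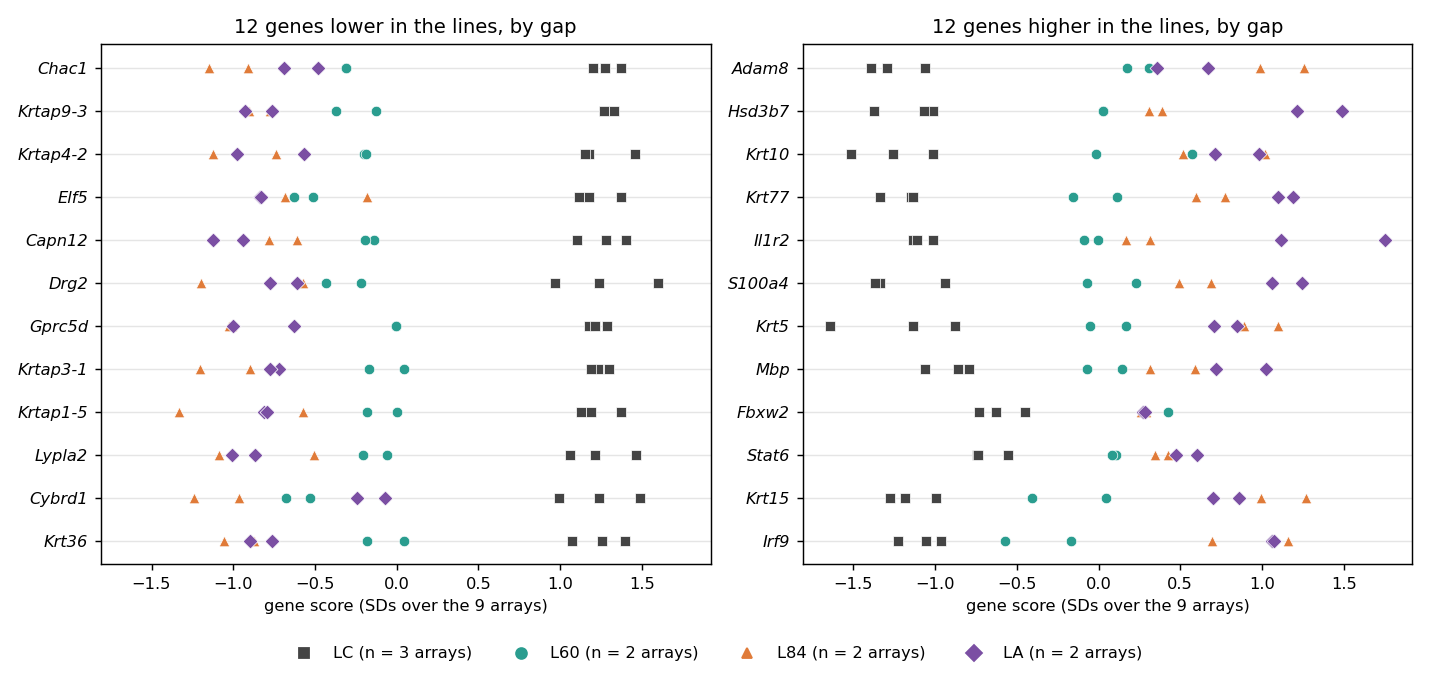
Gene scores in SDs on each of the 9 arrays for the 12 lower and the 12 higher genes with the widest gaps among those that passed the test (squares LC, circles L60, triangles L84, diamonds LA, 1 point per array). In each row the LC squares form a cluster of their own, and the L60 circles lie between them and the other lines in most rows, with Elf5, Cybrd1, Krt10 and Fbxw2 as exceptions.

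The keratins of the hair shaft were lower without exception. All 12 hair shaft keratins measured lay lower on all 6 line arrays, against 2.98% of all genes, and 9 of them fell: Krt31, Krt33a, Krt33b, Krt34, Krt35, Krt36, Krt81, Krt83 and Krt86. Hair keratins pair as acidic type I chains (Krt31 to Krt36) and basic type II chains (Krt81 to Krt86) into the filaments of the cortex and cuticle. Their median difference was -1.71 SD, against 0.13 SD over all genes. The medians were -1.04 SD in L60, -2.12 SD in L84 and -2.07 SD in LA.

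Krt34, a type I chain of the hair cortex, gave one of the 2 smallest adjusted p-values of the comparison. Its scores were 1.26, 1.22 and 1.11 on the 3 LC arrays, 0.102 and 0.125 on L60, -0.999 and -1.06 on L84 and -0.905 and -0.849 on LA. The LC scores were the highest, the L60 scores near 0 and the 4 other line scores near -1, and Krt34 fell by 1.79 ± 0.0409 SD (SE; adjusted p = 0.000720). Krt36, a further type I chain, scored 1.40, 1.07 and 1.26 on the 3 LC arrays, -0.180 and 0.0434 on L60, -0.873 and -1.06 on L84 and -0.764 and -0.898 on LA, and fell by 1.87 ± 0.103 SD (SE; adjusted p = 0.00635). Krt86, a type II cortex chain, scored 1.29, 1.15 and 1.14 on the 3 LC arrays, 0.0305 and 0.209 on L60, -1.02 and -0.920 on L84 and -1.02 and -0.861 on LA, and fell by 1.79 ± 0.0695 SD (SE; adjusted p = 0.00291). In both genes the L60 arrays again stood between LC and the other lines without touching either. Krt83, also type II, fell by 1.81 ± 0.159 SD (SE; adjusted p = 0.0221), with L60 at -0.272 and 0.318 and LC at 1.21, 1.16 and 1.26. The 3 hair keratins that did not pass, Krt32, Krt82 and Krt84, differed by -1.48, -1.65 and -1.84 SD, with wider spread inside the groups. Clustered hair keratin and keratin-associated protein genes are close copies of each other, and cross-hybridisation between them was not tested.

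Keratin-associated proteins, the matrix in which the hair keratin filaments are embedded, were lower in nearly every case. Of 26 measured, 24 lay lower on every line array, 0 lay higher, and 7 fell: Krtap1-5, Krtap3-1, Krtap4-2, Krtap4-16, Krtap8-1, Krtap9-3 and Krtap13-1. The overlapping members were Krtap13, at a difference of 0.0455 SD, and Krtap19-1, at -1.22 SD. The list's median difference was -1.83 SD. Among the 3 arrays high in 18S the median was -2.40 SD and among the 6 low ones -1.60 SD, and for the hair shaft keratins -1.74 and -1.73 SD. The arrays high in 18S have LC 1 as their only control and hold no LA array. Here and below, this split therefore cannot be told apart from a difference between lines. In Krtap5-2, which did not pass, LC 1 stood apart from the other controls, with 2.12, 0.515 and 0.662 on the 3 LC arrays.

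Krtap9-3 had the largest difference of the genes that passed. It scored 1.27, 1.33 and 1.27 on the 3 LC arrays, -0.368 and -0.124 on L60, -0.905 and -0.778 on L84 and -0.762 and -0.928 on LA. All 3 LC arrays lay within a narrow band at the top, and the gene fell by 1.93 ± 0.0735 SD (SE; adjusted p = 0.00291) across a gap of 1.39 SD. Krtap4-2 scored 1.46, 1.18 and 1.15 on the 3 LC arrays, -0.198 and -0.186 on L60, -1.12 and -0.740 on L84 and -0.979 and -0.565 on LA, and fell by 1.89 ± 0.147 SD (SE; adjusted p = 0.0154). Krtap3-1 scored 1.30, 1.23 and 1.19 on the 3 LC arrays, -0.171 and 0.0424 on L60, -1.20 and -0.895 on L84 and -0.718 and -0.773 on LA, and fell by 1.86 ± 0.0879 SD (SE; adjusted p = 0.00419). Its L60 arrays lay between the LC and the other line arrays. Krtap1-5, next to Krtap3-1 in gene order, fell by 1.85 ± 0.184 SD (SE; adjusted p = 0.0316).

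Many of these genes are neighbours in the genome. Ordered by RefSeq positions on GRCm38.p6 among the 12375 measured genes that could be placed, the 369 lower genes held 17 runs of adjacent measured genes, with 63 genes in them. The longest runs were 13 genes on chromosome 11, from Krtap3-1 to Krt36, and 13 genes on chromosome 16, from Krtap19-2 to Krtap8-1. A run of 6 type II genes on chromosome 15 held Krt81, Krt86, Krt83, Krt84, Krt82 and Krt75, and a run of 4 on chromosome 7 held Krtap5-2, Krtap5-1, Krtap5-4 and Ifitm10. A run of 3 peptidylarginine deiminase genes on chromosome 4 held Padi4, Padi3 and Padi1. The 458 higher genes held 22 runs, each of 2 genes, among them Stat5a with Stat3, Krt1 with Krt77 and Parp14 with Parp9. Chromosome 16 held the largest share of lower genes, 28 of 414 measured (6.76%), and chromosome 6 the smallest among the autosomes, 7 of 725 (0.966%), beside 38 (5.24%) higher.

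Promoter sequences are shown because these clustered genes were lower together. RefSeq windows on GRCm38.p6, running from 250 bases before to 50 bases after the annotated start, were found for 30 of the 36 lower hair keratin and keratin-associated protein genes and for 9887 of all 12393 genes. Below are 3 of them, each of which holds TATAAA, and Krt77, an epidermal keratin that was higher in the lines. The letters run 5′ to 3′ on the coding strand, and capitals mark TATAAA, the core of a TATA box, and CTTTG or its reverse complement CAAAG, the core that LEF1 and TCF proteins bind.
Krt34 (chr11:100041505-100041804, minus strand): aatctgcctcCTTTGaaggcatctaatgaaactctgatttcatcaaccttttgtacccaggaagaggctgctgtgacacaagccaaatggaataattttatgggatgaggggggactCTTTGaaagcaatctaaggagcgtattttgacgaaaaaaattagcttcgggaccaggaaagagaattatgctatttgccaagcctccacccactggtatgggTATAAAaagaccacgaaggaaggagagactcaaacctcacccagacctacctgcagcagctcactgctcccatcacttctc
Krtap3-1 (chr11:99566581-99566880, minus strand): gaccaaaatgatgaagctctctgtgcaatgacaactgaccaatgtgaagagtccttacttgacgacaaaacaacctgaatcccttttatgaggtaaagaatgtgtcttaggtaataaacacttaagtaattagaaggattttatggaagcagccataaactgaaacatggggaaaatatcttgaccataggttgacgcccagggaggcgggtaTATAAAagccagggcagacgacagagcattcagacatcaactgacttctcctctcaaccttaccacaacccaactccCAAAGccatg
Krtap9-3 (chr11:99598057-99598356, minus strand): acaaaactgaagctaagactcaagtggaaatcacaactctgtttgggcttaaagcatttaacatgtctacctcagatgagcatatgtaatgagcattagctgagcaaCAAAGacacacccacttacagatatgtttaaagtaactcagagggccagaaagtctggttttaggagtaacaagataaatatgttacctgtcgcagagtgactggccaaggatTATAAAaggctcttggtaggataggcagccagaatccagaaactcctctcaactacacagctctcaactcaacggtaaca
Krt77 (chr15:101869656-101869955, minus strand): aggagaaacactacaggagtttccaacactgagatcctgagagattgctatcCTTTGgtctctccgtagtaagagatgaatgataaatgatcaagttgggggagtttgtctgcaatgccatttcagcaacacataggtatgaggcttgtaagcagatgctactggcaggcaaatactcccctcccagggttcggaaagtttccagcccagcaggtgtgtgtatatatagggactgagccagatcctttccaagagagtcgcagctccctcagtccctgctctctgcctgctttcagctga

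TATAAA began 31, 37 and 30 bases before the start in Krt34, Krtap3-1 and Krtap9-3. The Krt77 window did not hold those letters but held the similar run TATATATA. Forms of the TATA box other than TATAAA were not searched for, so Krt77 is not shown to lack one. Searched on both strands, TATAAA was in 23 of the 30 hair gene windows (76.7%), against 10.1% of the 9887 windows and 10.3% of the 369 windows of higher genes. On the coding strand between 40 and 20 bases before the start it was in 15 of the 30 (50%), against 2.81% of all windows. CTTTG was in 20 of the 30 (66.7%), against 49.2%. The windows of Krt36, which fell, and Krt5, which rose, are not printed and held neither TATAAA nor CTTTG. Other cores were searched on both strands in the same way. GTAAACA, a FOXO core, was in 10% against 2.68% of all windows. GACGC, a FOXN1 core, was in 10% against 40.8%, and GGCGCC, a GC element bound by Smads downstream of BMP receptors, in 0 of 30 against 18.9%. CAATAAA, a HOX13 core, was in 0 of 30 against 2.98%. The median GC content of the hair gene windows was 42.2%, against 59.3% over all windows, and its part in these shares was not tested. Many of the hair genes are copies of each other, so their windows are not independent.

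The inner root sheath, the medulla and the cuticle, which surround and line the hair shaft, were lower as well. Of 17 genes measured, 12 lay lower on every line array, 0 lay higher, and 9 fell, of which 7 did not overlap: Crym, Gprc5d, Krt25, Padi3, Psors1c2, S100a3 and Tchh. Krt27 and Krt71, inner root sheath keratins, fell although L60 arrays lay above the lowest LC array. The cuticle gene S100a3, whose product binds calcium, scored 0.971, 0.973 and 0.983 on the 3 LC arrays, 0.691 and 0.555 on L60, -0.994 and -1.03 on L84 and -1.06 and -1.08 on LA. The LC scores were almost identical, L60 lay just below them, and L84 and LA lay far below, for a fall of 1.46 ± 0.0322 SD (SE; adjusted p = 0.000720). Tchh, trichohyalin of the inner root sheath and medulla, scored 0.950, 1.001 and 0.872 on the 3 LC arrays, 0.754 and 0.606 on L60, -1.01 and -1.06 on L84 and -0.948 and -1.17 on LA, and fell by 1.41 ± 0.0678 SD (SE; adjusted p = 0.00419). Krt25 fell by 1.34 ± 0.0406 SD (SE; adjusted p = 0.00149), with L60 at 0.811 and 0.716 just below LC at 0.855, 0.937 and 0.888. Gprc5d, an orphan receptor of keratinising hair cells, was different in that L60 was tied at -0.00657 well below LC at 1.18, 1.22 and 1.29, and it fell by 1.84 ± 0.0872 SD (SE; adjusted p = 0.00419). Psors1c2, a proline-rich protein gene of the psoriasis susceptibility region, fell by 1.73 ± 0.0975 SD (SE; adjusted p = 0.00682). The list's median difference was -0.61 SD in L60, -1.97 SD in L84 and -1.99 SD in LA, and -0.96 SD among the arrays high in 18S against -1.71 SD among the others.

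Transcription factors and signals of the hair matrix, from whose dividing cells the shaft and its sheath form, were lower in a minority. Of 33 measured, 6 lay lower on every line array (Dlx2, Elf5, Foxn1, Foxq1, Hoxc13 and Ovol1), 0 lay higher, and Dlx2, Elf5, Hoxc13 and the overlapping Msx2 fell. The list's median difference was -1.01 SD, with -0.24 SD in L60, -1.50 SD in L84 and -1.47 SD in LA, and with -0.45 SD among the arrays high in 18S against -1.24 SD among the others. Elf5, an epithelial ETS factor, scored 1.18, 1.12 and 1.37 on the 3 LC arrays, -0.510 and -0.630 on L60, -0.180 and -0.681 on L84 and -0.836 and -0.829 on LA. Both of its probe sets were lower on every line array, L60 was as low as the other lines, and Elf5 fell by 1.83 ± 0.130 SD (SE; adjusted p = 0.0140). Hoxc13, a homeobox activator of hair keratin genes, scored 0.718, 1.07 and 1.08 on the 3 LC arrays, 0.566 and 0.701 on L60, -0.743 and -1.12 on L84 and -1.21 and -1.05 on LA. L60 came within 0.0177 SD of the lowest LC array, and Hoxc13 fell by 1.43 ± 0.132 SD (SE; adjusted p = 0.0249). Foxn1, the factor missing in nude mice, scored 1.26, 0.737 and 1.72 on LC and between -1.09 and -0.279 on the lines, a difference of -1.86 ± 0.238 SD (SE; adjusted p = 0.0655) that did not pass. Lef1, the DNA-binding partner of beta-catenin, overlapped, at -1.32 ± 0.316 SD (SE; adjusted p = 0.199). The hair growth signal Shh overlapped too, at -0.140 ± 0.708 SD (SE; adjusted p = 0.948).

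BMP target genes were mixed. Of 22 measured, 6 lay lower on every line array (Bambi, Dlx2, Foxn1, Hoxc13, Smad6 and Smad7) and 2 higher (Gata2 and Tgfbi), and 5 fell, Msx2 being the overlapping one. Differences were below 0 in 13 and above 0 in 9 of the 22. The list's median was -0.70 SD, with -0.08 SD in L60, -1.20 SD in L84 and -1.08 SD in LA, and with -0.34 SD among the arrays high in 18S against -1.02 SD among the others. The list shares Dlx2, Foxn1, Hoxc13 and Msx2 with the hair matrix list. Smad6, an intracellular inhibitor that BMP signalling induces, scored 0.901, 1.16 and 1.59 on the 3 LC arrays, -0.0310 and -0.0134 on L60, -0.760 and -0.773 on L84 and -0.998 and -1.07 on LA. Every line array lay at or below -0.0134 and every LC array at or above 0.901, and Smad6 fell by 1.82 ± 0.157 SD (SE; adjusted p = 0.0205). Bambi, a receptor without a kinase domain, scored 0.956, 1.13 and 0.958 on the 3 LC arrays, 0.696 and 0.384 on L60, -0.936 and -0.966 on L84 and -1.13 and -1.09 on LA. Its L60 arrays lay just under LC, and it fell by 1.52 ± 0.0832 SD (SE; adjusted p = 0.00635). Dlx2, a homeobox gene downstream of BMPs, fell by 1.69 ± 0.134 SD (SE; adjusted p = 0.0158), and Msx2 fell by 1.42 ± 0.158 SD (SE; adjusted p = 0.0459). Smad7, the other inhibitory Smad, differed by -1.67 ± 0.428 SD (SE; adjusted p = 0.223) and did not pass.

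The Id genes, direct BMP targets that encode inhibitors of helix-loop-helix factors, overlapped in their gene scores. Id1 differed by -0.871 ± 0.516 SD (SE; adjusted p = 0.535), Id2 by -0.468 ± 0.523 SD (SE; adjusted p = 0.743) and Id3 by -0.812 ± 0.236 SD (SE; adjusted p = 0.271). The 3 probe sets of Id2 disagreed, with differences of 0.569, -0.624 and -1.35 SD. Only the last of them lay lower on every line array, and it did not pass alone (adjusted p = 0.0965). For Id3 the L60 arrays, at 0.926 and 1.39, were above all LC arrays, while L84 and LA lay between -1.34 and -0.643. Upstream of these genes, 0 of 26 BMP ligands, receptors and antagonists stood clear of LC in either direction, against 6.67% of all genes. The median difference of the 26 genes was 0.05 SD, a sign that turned with array medians at 0 (-0.01 SD). Bmp4 differed by -0.964 ± 0.312 SD (SE; adjusted p = 0.309) and Bmp2 by -0.428 ± 0.706 SD (SE; adjusted p = 0.827). Of 24 Akt and PI3K pathway genes, 0 lay outside LC in either direction, again against 6.67% of all genes. In lists of this size a count of 0 is near that share. The median difference of the 24 genes was 0.00 SD (-0.06 SD with array medians at 0, where 1 gene lay lower). Akt1 differed by 0.234 ± 0.460 SD (SE; adjusted p = 0.852) and Akt2 by -0.537 ± 0.480 SD (SE; adjusted p = 0.685). Among 26 FOXO factors and targets, Sesn3 lay lower on every line array (3.85%, against 2.98% of all genes) and 0 lay higher. Igfbp3, which binds insulin-like growth factors, was the 1 of 10 genes of that family that did not overlap (10% higher, against 3.7% of all genes). It was higher by 1.79 ± 0.209 SD (SE; adjusted p = 0.0511) and did not pass.

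**Figure D2:**
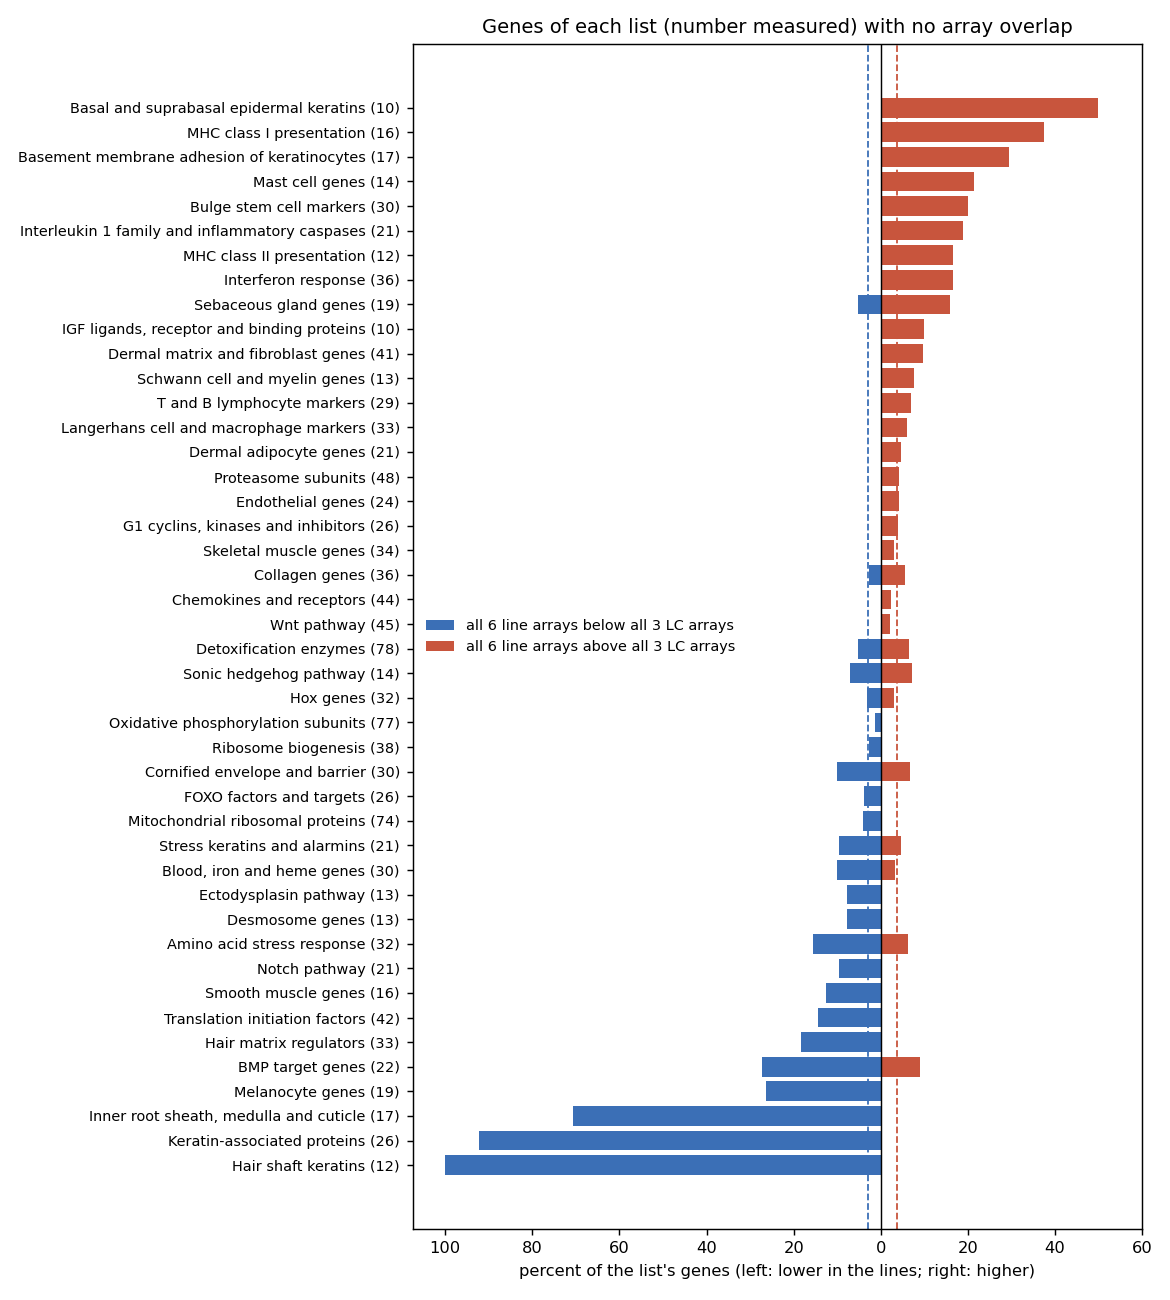
Share of the genes of each list, in percent, that lay below all LC arrays on all 6 line arrays (blue, leftward) or above them (red, rightward), for the 44 lists with such a gene, with the number of genes measured in brackets and dashed lines at the shares of all genes (2.98% and 3.7%). Hair shaft keratins (100% lower) and keratin-associated proteins (92.3% lower) stand at the bottom, and epidermal keratins (50% higher) and MHC class I genes (37.5% higher) at the top.

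Chac1, which encodes an enzyme that degrades glutathione and is induced when amino acids are scarce, had the widest gap of the genes that passed. It scored 1.37, 1.27 and 1.20 on the 3 LC arrays, -0.311 and -0.311 on L60, -1.15 and -0.909 on L84 and -0.480 and -0.689 on LA. The L60 arrays, tied with each other, were the nearest to LC, 1.51 SD below the lowest control. Chac1 fell by 1.92 ± 0.0807 SD (SE; adjusted p = 0.00347), and a tie within a genotype adds nothing to the spread behind the SE. It was the 1 gene of the amino acid stress list that passed. Of the list's 32 genes, 5 were lower (Chac1, Cth, Gars, Slc3a2 and Slc7a1, 15.6% against 2.98% of all genes). A further 2 were higher (Nupr1 and Phgdh, 6.25% against 3.7%). Capn12, a calpain protease of the hair follicle, scored 1.10, 1.40 and 1.28 on the 3 LC arrays, -0.140 and -0.192 on L60, -0.783 and -0.609 on L84 and -0.940 and -1.12 on LA, and fell by 1.89 ± 0.0884 SD (SE; adjusted p = 0.00419). LA was the lowest group and L60 the nearest to LC. Drg2, a GTP-binding protein, fell by 1.90 ± 0.207 SD (SE; adjusted p = 0.0433), and the acyl-protein thioesterase Lypla2 fell by 1.87 ± 0.165 SD (SE; adjusted p = 0.0222).

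A pair of genes of iron handling fell. Cybrd1, a ferric reductase, scored 1.24, 0.996 and 1.49 on the 3 LC arrays, -0.678 and -0.530 on L60, -1.24 and -0.962 on L84 and -0.242 and -0.0739 on LA. Here LA was the line nearest to LC, and Cybrd1 fell by 1.86 ± 0.136 SD (SE; adjusted p = 0.0149). Slc25a37, a mitochondrial iron importer, fell by 1.75 ± 0.147 SD (SE; adjusted p = 0.0186). Of 30 genes of the blood, iron and heme list, 3 (10%, against 2.98% of all genes) were lower on every line array and 1 was higher. The list went both ways, with 17 differences below 0 and 13 above 0, and its median was -0.21 SD. Other genes that fell, picked after their values were seen, were Odc1, the first enzyme of polyamine synthesis, with L60 at 0.472 and 0.466, L84 at -0.741 and -0.757 and LA at -0.942 and -1.45, and Ctps, Ahcy, Lap3 and Ddx39a. Of 42 translation initiation factors 6 were lower on every line array and 0 higher. Among them Eif2b1, Eif2b2, Eif2b4 and Eif2b5 are subunits of eIF2B, the exchange factor that recharges eIF2, with differences of -1.19, -1.39, -1.72 and -1.73 SD. They were singled out after their values were seen, and 0 of the 42 passed.

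Melanocyte genes, which make and package the pigment passed to the hair shaft, were mostly lower. Of 19 measured, 5 lay lower on every line array (Gpr143, Oca2, Pmel, Ptgds and Tyr), 8 did so with array medians at 0, and 0 lay higher. Tyrp1 and Dct, enzymes of melanin synthesis, fell by 1.39 ± 0.0954 SD (SE; adjusted p = 0.0131) and 1.31 ± 0.103 SD (SE; adjusted p = 0.0154) although the L60 arrays reached the LC range. The list's median difference was -1.28 SD, with 17 of 19 genes below 0. Sox10 and Mitf, which define the lineage, differed by -0.0332 and -0.223 SD. In whole skin fewer cells of a type and less RNA per cell cannot be told apart, here and for the hair genes.

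Cell division genes had medians of different sign among the lines. None of 48 mitosis genes and none of 41 DNA replication genes lay outside LC on all 6 line arrays, against 6.67% of all genes. Of them 0 passed, against 0.637% of all genes, a share too small to show in lists of this size. Differences were below 0 in 40 of the 48 mitosis and 29 of the 41 replication genes, against 5443 of all 12393. The list medians were -0.68 and -0.28 SD. The mitosis median was 0.38 SD in L60, -0.84 SD in L84 and -1.59 SD in LA. The replication median was 0.65 SD in L60, -0.41 SD in L84 and -1.25 SD in LA. Ccnd1, a G1 cyclin, scored 0.884, 0.444 and 0.502 on the 3 LC arrays, 1.30 and 0.753 on L60, -1.38 and -0.444 on L84 and -0.992 and -1.06 on LA, with L60 among the LC arrays or above them and the other lines below.

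**Figure D3:**
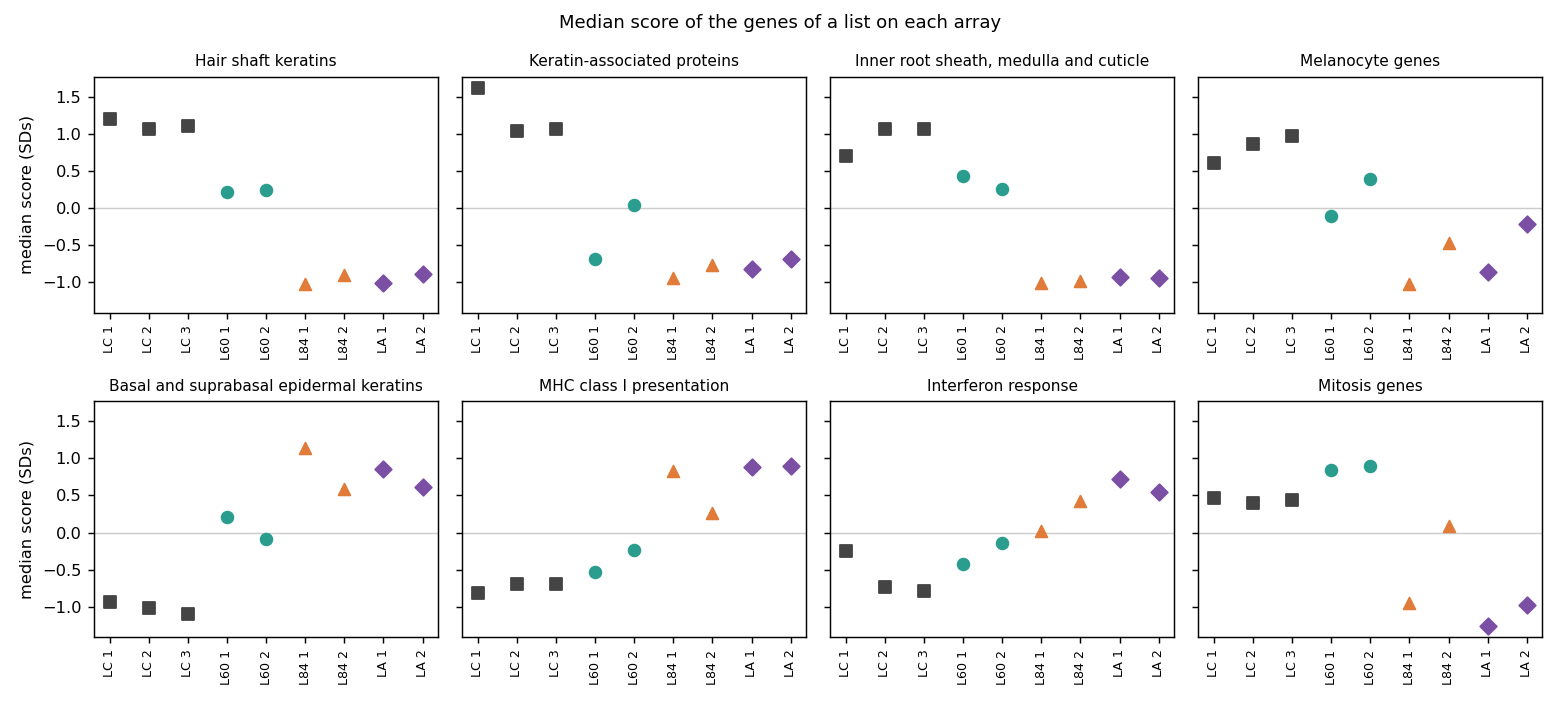
Median score, in SDs, of the genes of 8 lists on each of the 9 arrays (squares LC, circles L60, triangles L84, diamonds LA, 1 point per array). Hair shaft keratins run from 1.07 to 1.20 on LC and from -1.02 to 0.246 on the line arrays, with L60 in between, and epidermal keratins from -1.10 to -0.939 on LC and from -0.0860 to 1.14 on the lines, whereas mitosis genes on L60 lie above LC.

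Among the higher genes, keratins of the epidermis between the follicles had the largest share of any of the 53 lists. Of 10 basal and suprabasal epidermal keratins measured, 5 lay higher on every line array (Krt1, Krt5, Krt10, Krt15 and Krt77), against 3.7% of all genes, 0 lay lower, and all but Krt1 of these rose. The list's median difference was 1.54 SD. Krt5, the type II keratin of the basal layer, scored -1.64, -0.880 and -1.13 on the 3 LC arrays, -0.0532 and 0.169 on L60, 1.10 and 0.892 on L84 and 0.846 and 0.704 on LA, and rose by 1.83 ± 0.189 SD (SE; adjusted p = 0.0363). Krt10, the type I keratin of the layers above it, scored -1.01, -1.51 and -1.26 on the 3 LC arrays, 0.574 and -0.0158 on L60, 1.02 and 0.517 on L84 and 0.979 and 0.711 on LA. It rose by 1.89 ± 0.215 SD (SE; adjusted p = 0.0491), a call that was lost whichever array was left out. The Krt5 call was kept in 1 of those 9 runs. Both keratins had their lowest line score on L60 and no line array below -0.0532.

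Krt77, a type II keratin of the suprabasal layers, scored -1.34, -1.15 and -1.13 on the 3 LC arrays, 0.115 and -0.156 on L60, 0.772 and 0.597 on L84 and 1.19 and 1.10 on LA. LC, L60, L84 and LA followed in that order with no overlap between LC and any line, and Krt77 rose by 1.81 ± 0.0907 SD (SE; adjusted p = 0.00485). Krt15, a keratin of the basal layer and the follicle bulge, rose by 1.73 ± 0.139 SD (SE; adjusted p = 0.0160), with L60 at -0.407 and 0.0426 and the other lines at 0.698 or above. Krt1 differed by 1.81 ± 0.251 SD (SE; adjusted p = 0.0709). Krt14, the partner of Krt5, overlapped, with LA at -0.347 and -0.679, and differed by 0.965 ± 0.401 SD (SE; adjusted p = 0.399). The cornified envelope proteins loricrin and filaggrin overlapped, Lor at 0.898 ± 0.568 SD (SE; adjusted p = 0.564) and Flg at -0.963 ± 0.545 SD (SE; adjusted p = 0.516). Of 30 cornified envelope and barrier genes, 2 were higher on every line array (Dmkn and Krtdap, 6.67% against 3.7% of all genes). In the other direction 3 were lower on every line array (Ivl, Sprr1b and Tgm3, 10% against 2.98%).

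Anchoring genes of the basal layer were higher as a smaller group. Of 17 genes of keratinocyte adhesion to the basement membrane, 5 lay higher on every line array (Col17a1, Dst, Lama3, Lamb3 and Plec, 4 with array medians at 0), 0 lay lower and 0 passed. Of 30 bulge stem cell markers, 6 were higher (Cd34, Col17a1, Fgf1, Krt15, Postn and S100a4), 0 lower, and Krt15 and S100a4 rose. S100a4, a calcium-binding protein of bulge cells that fibroblasts and leukocytes also carry, scored -0.943, -1.34 and -1.37 on the 3 LC arrays, -0.0703 and 0.230 on L60, 0.690 and 0.494 on L84 and 1.25 and 1.06 on LA. LA was the highest group, and S100a4 rose by 1.82 ± 0.139 SD (SE; adjusted p = 0.0154).

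Adam8, a membrane-bound metalloprotease, had the widest gap of the genes that rose. It scored -1.39, -1.30 and -1.06 on the 3 LC arrays, 0.173 and 0.311 on L60, 0.985 and 1.26 on L84 and 0.358 and 0.668 on LA. L84 was the highest group and a gap of 1.24 SD parted LC from the nearest line array, for a rise of 1.88 ± 0.123 SD (SE; adjusted p = 0.0119). Hsd3b7, an enzyme of bile acid and oxysterol metabolism, scored -1.37, -1.02 and -1.07 on the 3 LC arrays, 0.0263 and 0.0263 on L60, 0.389 and 0.311 on L84 and 1.49 and 1.21 on LA, with the 2 L60 arrays tied, and rose by 1.73 ± 0.108 SD (SE; adjusted p = 0.00981). Mbp, myelin basic protein, rose by 1.36 ± 0.122 SD (SE; adjusted p = 0.0235), and 5 of its 8 probe sets were higher on every line array. It was the 1 of 13 Schwann cell and myelin genes that did not overlap (7.69% higher, against 3.7% of all genes). Stat6, which carries interleukin 4 and 13 signals, rose by 1.02 ± 0.0591 SD (SE; adjusted p = 0.00751) as the mean of 2 probe sets, although neither alone stood clear of LC. Fbxw2, an F-box protein of ubiquitin ligases, rose by 0.904 ± 0.0708 SD (SE; adjusted p = 0.0154), a small shift that 1 of its 6 probe sets showed on every line array.

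Antigen presentation and interferon genes were higher in a minority of members. Of 16 MHC class I presentation genes, 6 lay higher on every line array (B2m, Erap1, H2-K1, H2-Q2, Psmb8 and Psmb9, but 3 of the list with array medians at 0), 0 lay lower, and B2m and H2-K1 rose. B2m, the light chain of all class I molecules, scored -1.25, -0.847 and -1.01 on the 3 LC arrays, -0.508 and -0.360 on L60, 0.691 and 0.993 on L84 and 1.26 and 1.02 on LA, and rose by 1.55 ± 0.129 SD (SE; adjusted p = 0.0180). H2-K1, a class I heavy chain, scored -1.08, -0.780 and -0.757 on the 3 LC arrays, -0.593 and -0.660 on L60, 0.672 and 0.550 on L84 and 1.24 and 1.41 on LA, and rose by 1.31 ± 0.0938 SD (SE; adjusted p = 0.0146) as the mean of 4 probe sets, of which 1 alone lay clear of LC. In both genes L60 lay just above LC and LA highest. Of 36 interferon response genes, 6 were higher on every line array (4 with array medians at 0), 0 were lower, and Irf9, an interferon regulatory factor, rose by 1.62 ± 0.150 SD (SE; adjusted p = 0.0249). The interferon list's median difference was 0.90 SD, but 0.000903 SD among the 3 arrays high in 18S and 1.30 SD among the other 6. Both LA arrays are among those 6, and the list's median was 0.29 SD in L60, 0.90 SD in L84 and 1.25 SD in LA.

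Immune cell markers had mostly positive differences, largest in LA. Of 33 Langerhans cell and macrophage markers 32 had a difference above 0, against 6950 of all 12393 genes, with a median of 0.64 SD. The median was 0.42 SD in L60, 0.19 SD in L84 and 1.36 SD in LA. It was 1.15 SD among the arrays low in 18S and -0.36 SD among those high in it, which hold no LA array. The median of these markers on single arrays ran from -0.475 to -0.382 on LC and from -0.820 to 1.21 on the lines, so as a list they overlapped. Of these markers, 2 (6.06%, against 3.7% of all genes) lay higher on every line array, Itgax and Cd207, the langerin of Langerhans cells. Cd207 scored -0.777, -1.12 and -0.746 on the 3 LC arrays, -0.379 and -0.476 on L60, 0.198 and 0.0850 on L84 and 1.61 and 1.60 on LA, and rose by 1.32 ± 0.0987 SD (SE; adjusted p = 0.0154), with L60 nearest to LC, L84 next and LA far above. T and B lymphocyte markers were above 0 in 26 of 29 genes and skeletal muscle genes in 31 of 34. Higher on every line array were 2 (6.9%) and 1 (2.94%) of them respectively, against 3.7% of all genes, and 0 passed. Their median differences were 0.06 and -0.30 SD in L60, 0.38 and 1.21 SD in L84 and 1.35 and 1.23 SD in LA. The part of these cell types in the higher genes was not tested. Il1r2, the decoy receptor for interleukin 1, scored -1.14, -1.11 and -1.01 on the 3 LC arrays, -0.000914 and -0.0917 on L60, 0.168 and 0.314 on L84 and 1.75 and 1.12 on LA, and rose by 1.63 ± 0.149 SD (SE; adjusted p = 0.0249). Of 21 genes of the interleukin 1 family and inflammatory caspases, 4 were higher (Aim2, Il1r2, Il33 and Pycard) and 0 lower on every line array. Ccr3, the eotaxin receptor, was the 1 of 44 chemokine genes that did not overlap (2.27% higher, against 3.7% of all genes). It differed by 1.84 ± 0.295 SD (SE; adjusted p = 0.0938) and did not pass.

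The size of the shared difference varied by line. Both arrays of L60 were the nearest to LC in 122 of the 369 lower genes, against 3 for L84 and 14 for LA, and in 126 of the 458 higher genes, against 11 and 9. The median difference from LC of the lower genes was -1.05 SD in L60, -1.66 SD in L84 and -1.84 SD in LA, and of the higher genes 0.87, 1.46 and 1.71 SD. Tested against LC one line at a time, 0 of all genes passed in L60 (0%), 70 in L84 (0.565%) and 223 in LA (1.8%). These comparisons share the LC arrays. Among the 827 genes, the L84 comparison passed in 42 lower and 14 higher genes and the LA comparison in 70 lower and 51 higher genes.

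**Figure D4:**
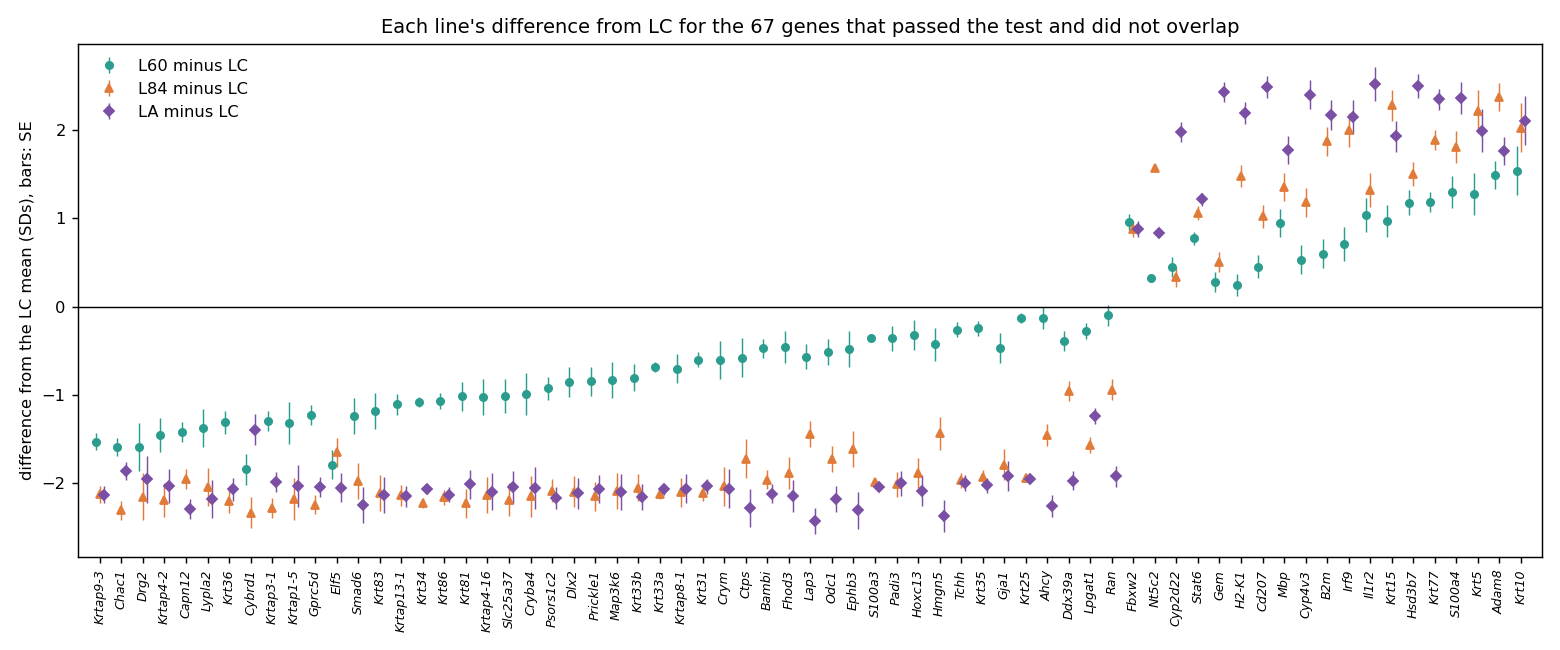
Difference of each line from the LC mean, in SDs, for the 67 genes that passed the test and did not overlap, with SE bars (circles L60, triangles L84, diamonds LA). The L60 difference is the smallest of the 3 in 46 of the 48 lower genes and in 17 of the 19 higher genes, and runs close to 0 for Krt25, Ahcy and Ran.

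The difference between lines was tested directly. Across all genes the F test among the 3 lines called 42 (0.339%), of which 13 were among the 369 lower and 5 among the 458 higher genes. L84 differed from L60 in 14 genes (0.113%), of which 9 were among the lower and 1 among the higher genes. LA differed from L60 in 78 genes (0.629%), of which 20 were among the lower and 7 among the higher genes, and from L84 in 2 genes (0.0161%), with 0 among the 827. Krt25 was lower in L84 than in L60 by -1.81 SD (adjusted p = 0.00376) and in LA than in L60 by -1.82 SD (adjusted p = 0.00364). Nt5c2, a cytosolic purine nucleotidase, scored -0.586, -0.556 and -0.679 on the 3 LC arrays, -0.270 and -0.300 on L60, 0.965 and 0.968 on L84 and 0.251 and 0.208 on LA, so that L84 was the highest line, and it rose by 0.911 ± 0.0311 SD (SE; adjusted p = 0.00215). It was higher in L84 than in L60 by 1.25 SD (adjusted p = 0.00413). Its scores are means of 3 probe sets, of which 1 lay clear of LC and 0 passed alone (adjusted p from 0.464 to 0.830), and on L84 they scattered from -0.0365 to 2.27. With limma's moderated variance the F test called 0 genes, where 1719 had an unadjusted p under 0.05. The 42 became 1 with replicate number as a block, and with 1 array left out they ran from 3 without LC 1 to 138 without L84 2, with 4 without LC 2, 9 without LC 3, 7 without L60 1, 5 without L60 2, 12 without L84 1, 16 without LA 1 and 13 without LA 2.

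Of the 79 genes that passed, 12 overlapped. The 9 that fell were Gjb2, Krt27, Krt71, Tyrp1, Dct, Matn4, Mis18a, Msx2 and D17H6S56E-5, and the 3 that rose were Itm2b, Napsa and Plcg2. These words refer to the mean of the 3 lines and not to each line. In Itm2b both L60 arrays, at -0.668 and -0.672, lay below every LC array (-0.566 to -0.422). The L60 mean was also below the LC mean in Plcg2 (-0.864 against -0.768), and above it in Matn4 (0.881 against 0.785) and Mis18a (0.737 against 0.613). In D17H6S56E-5 the whole difference came from LA at -1.72 and -1.76, against 0.381 to 0.421 on LC and 0.488 to 0.741 on the other lines. Gjb2, a gap junction connexin of the epidermis, had LC at 0.775, 1.01 and 0.879, with 1 L60 array among them at 0.849 and the other just below at 0.649, and fell by 1.33 ± 0.0792 SD (SE; adjusted p = 0.00798). Of the 827 genes, 668 were in none of the 53 lists, which held 96 of the lower and 63 of the higher genes.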

How the data were processed

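The 9 Affymetrix arrays, each of 1 RNA pool from 30-day-old skin, were grouped by their titles. RMA, which corrects, normalises and summarises probe intensities, is named in the submitters' processing notes. The values deposited by the authors were a score per probe set, found in the table to have mean 0 and SD 1 over the 9 arrays, and how that standardisation was done is not given in the sources used here. Probe sets were named from the platform annotation: 20380 named 1 gene, 691 several and 1555 none, beside 64 controls. A gene's score was the mean of the probe sets naming it alone (12393 genes, 4956 with more than 1).

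Non-overlap was counted with no test. limma 3.58.1 in R 4.3.3 fitted 4 genotype means over all 9 arrays without variance moderation, with Benjamini-Hochberg adjustment over all 12393 genes and a threshold of 0.05. Tested on simulated data, it recovered most shifted genes and also called a few unchanged ones, whereas the moderated fit recovered none. Those data had independent noise, no array effects and equal shifts in all lines, unlike the scores here. They therefore cannot decide which fit is right for these scores. Named genes were the 12 of each direction with the widest gap among those that passed, up to 4 such genes per list, fixed genes of the Akt, BMP and hair pathways, the 4 largest F values and the genes at the edge of the rule. Other genes were picked after their values were seen. The members, the lists and the tests were chosen with earlier results of these data known. The number of arrays limits the precision.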

Additional observations from a re-analysis of the deposited data

Results flagged for a closer look

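For 28 genes the lines differed among themselves by limma's F test, 18 of the non-overlapping genes and 10 of the 12 that passed but overlapped. Among non-overlapping lower genes the adjusted p was 0.00514 for S100a3, 0.00532 for Krt25, 0.0108 for Krt33a, 0.0188 for Krt34, 0.0188 for Krt35, 0.0193 for Tchh, 0.0252 for Krt31, 0.0354 for Ahcy, 0.0354 for Bambi, 0.0389 for Ran, 0.0393 for Lpgat1, 0.0444 for Ddx39a and 0.0474 for Krt86, with L84 or LA the lowest line and L60 the highest in each. Among the higher genes it was 0.00886 for Nt5c2, highest in L84, and 0.0252 for Gem, 0.0354 for Cd207, 0.0354 for Cyp2d22 and 0.0354 for H2-K1, highest in LA. Gem, Cyp2d22 and Lpgat1 are named only because of this test. Among the overlapping genes that fell it was 0.00714 for D17H6S56E-5, 0.0252 for Gjb2, 0.0354 for Dct, 0.0354 for Krt27, 0.0354 for Mis18a, 0.0354 for Tyrp1 and 0.0393 for Krt71, and among those that rose 0.0306 for Itm2b, 0.0389 for Napsa and 0.0444 for Plcg2. Ran, a GTPase of nuclear transport, had LA at -1.14 and -1.39, L84 at -0.196 and -0.374, and L60 at 0.550 and 0.574, just below the LC values. Single arrays were not tested for standing apart within groups of 2 or 3.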

How the results depend on the processing

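Of 71 named genes, 43 passed and 0 of these changed direction under any alternative run. The 79 calls became 0 with moderated variance and 0 with a robust moderated fit. They became 2 with the 6 line arrays as 1 group, 1 with replicate number as a block and 235 with array weights. Single arrays moved the count of calls from 13 to 110: 13 without LC 2, 23 without LC 3, 34 without LA 2, 37 without L60 1 or LA 1, 40 without L60 2 and 50 without LC 1. Without the arrays high in 18S (LC 1, L60 1 and L84 1) it was 11, and without L84 1 and LA 2 it was 33. The 827 non-overlapping genes became 889 to 2029 (without LC 1), 3854 without the arrays high in 18S and 1392 without L84 1 and LA 2 (leaving out an array can only raise this count). The cause of the larger rise without LC 1 was not tested. The 42 genes that differed among the lines became 0 with moderated variance, 1 with the replicate block and 3 to 138 (without L84 2) with 1 array left out. Same-numbered pools correlated at r from -0.0833 to 0.345 in 12 pairs, 5 of them over 0.1, and the labels give the numbers no meaning, so the block was kept as an alternative, although Xist was low on the first array of every genotype and 18S high on 3 of these 4. Reversals were confined to genes that had not passed. With the first probe set by name they were Akt1 (-0.378), Cdkn1b (0.620) and Id2 (0.569). Shh reached 0.470 without L84 1 and LA 2. Xist reached 0.103 with the replicate block, 0.0544 without the arrays high in 18S and 0.0181 without L84 1 and LA 2. With 1 array left out the ranges were -0.0452 to 0.513 for Akt1, -0.914 to 0.0590 for Bmp2, -0.267 to 0.0824 for Cdkn1b, -0.720 to 0.154 for Edar, -0.649 to 0.370 for Shh and -0.671 to 0.238 for Xist. The cause was not tested. With array medians at 0 the calls were 86, with the first probe set 68 and over single probe sets 64 of 20380.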

Other observations

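Probe sets that name several genes or none were not used above. Of the 691 naming several genes, 21 (3.04%) were lower and 29 (4.2%) higher on every line array than on every LC array, and of the 1555 naming none, 43 and 41. Of 5 that name a keratin or keratin-associated protein among several genes, 4 were lower and 0 higher.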
